A study of Mus musculus with 16 samples.

Results

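Expression of 10 circadian clock genes was examined in RNA-seq of whole pancreatic islets from the 8 founder strains of the Diversity Outbred mouse population. The genes were taken by name from the 54146 genes of the tables and are the activators Arntl (also called Bmal1) and Clock, the repressors Per1, Per2, Per3, Cry1 and Cry2, the nuclear receptors Nr1d1 and Nr1d2 (REV-ERB alpha and beta) and the output factor Dbp. All 10 were among the 15204 protein-coding genes tested. The strains were 129S1/SvImJ (129), A/J (AJ), C57BL/6J (B6), CAST/EiJ (CAST), NOD/ShiLtJ (NOD), NZO/HlLtJ (NZO), PWK/PhJ (PWK) and WSB/EiJ (WSB). These are inbred lines with no transgene. Every mouse was 26 weeks old and on a high-fat diet, and both sexes were sampled. No standard-diet group was analysed here, so age and diet are shared by all groups. The 91 libraries comprised 10 of 129, 14 of AJ, 18 of B6, 14 of CAST, 10 of NOD, 4 of NZO, 5 of PWK and 16 of WSB. The clock time at which islets were taken is not stated in the sources used here.

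The circadian clock is a transcriptional feedback loop that runs in almost every cell. The proteins of Arntl and Clock pair and bind E-box sequences, and so switch on the Per and Cry genes, whose proteins return to inhibit the pair. The same pair switches on Nr1d1 and Nr1d2, which repress Arntl through ROR/REV-ERB elements, and Dbp, which acts on D-box sequences of further genes. In many tissues Arntl therefore peaks at the opposite time of day from Dbp and Per3. In islets the clock is known for its role in the timing of insulin secretion.

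These elements can be read in the promoter sequences of some of the genes. RefSeq promoter windows on GRCm38.p6, which run from 250 bases before to 50 bases after a start site, were matched by symbol for 9 of the 10 genes (13 windows). On both strands 4 motifs were searched: the E-box CACGTG, the D-box TTATGTAA, the core of the ROR/REV-ERB element TAGGTCA and the cAMP response element TGACGTCA. The motifs do not overlap each other. An E-box was held by 2 of the 13 windows (Per1 and Cry1) and by 7.15% of all 32851 windows. The D-box was held by 1 (Per3, with 2 copies) and by 0.938% of all windows, the ROR/REV-ERB core by 1 (Arntl) and by 2.61%, and the cAMP response element by 0 and by 1.79%. A match is a description of these letters and not a binding site. The Per1 window precedes a start inside the annotated gene, within an intron of a longer transcript. The 250 bases before the start are shown for the 3 repressors whose window held a motif, and a 30-base site is shown for Arntl, where the core lay after the start. Capitals mark the motif.
Per1 (chr11:69098699-69098948, + strand, E-box): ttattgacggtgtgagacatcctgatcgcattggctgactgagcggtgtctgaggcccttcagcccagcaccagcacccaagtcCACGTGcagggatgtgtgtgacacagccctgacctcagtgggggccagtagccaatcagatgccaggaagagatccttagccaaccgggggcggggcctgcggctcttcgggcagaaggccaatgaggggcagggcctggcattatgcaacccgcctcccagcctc
Cry1 (chr10:85185055-85185304, - strand, E-box): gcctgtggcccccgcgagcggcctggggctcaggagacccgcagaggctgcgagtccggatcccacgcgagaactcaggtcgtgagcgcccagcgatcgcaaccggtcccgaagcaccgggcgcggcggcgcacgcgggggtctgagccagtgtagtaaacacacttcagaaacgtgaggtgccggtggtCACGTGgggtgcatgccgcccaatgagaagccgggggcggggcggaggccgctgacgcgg
Per3 (chr4:151044666-151044915, - strand, D-box): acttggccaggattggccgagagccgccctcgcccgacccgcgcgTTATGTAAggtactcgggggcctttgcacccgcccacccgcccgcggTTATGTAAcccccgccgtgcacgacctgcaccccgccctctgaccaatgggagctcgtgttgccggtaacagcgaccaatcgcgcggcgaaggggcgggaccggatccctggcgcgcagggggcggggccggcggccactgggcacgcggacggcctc
Arntl (chr7:113207530-113207559, + strand, ROR/REV-ERB core): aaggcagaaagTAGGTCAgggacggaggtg

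Libraries held between 16928552 and 35196145 expected counts. Markers of islet endocrine cells (7 of 7 detected, hormones included) summed to 180831 to 592148 TPM (transcripts per 1e+06, corrected for length), so the defining markers of the labelled tissue were present. Acinar markers (8 of 8 detected) summed to 1578 to 20778 TPM in AJ with a median of 5460 TPM, and the medians of the other strains ran from 19195 TPM in 129 to 97652 TPM in PWK. Lymphocyte markers (6 of 6 detected) summed to 8.90 to 922 TPM in NOD and to at most 69.1 TPM in any other strain. In 12 libraries (6 of 129, 2 of NOD and 4 of WSB) Xist and Y-linked counts went against the sex label. The labels state that animals came in 4 waves without assigning libraries to them. Libraries carry running numbers, with AJ, B6, CAST and WSB split between 1 to 32 and 34 to 65, and with 129, NOD, NZO and PWK all between 66 and 100. Strain and number range cannot be told apart between those groups of 4 strains. In whole islets, fewer cells of a type and less RNA per cell cannot be told apart.

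All 10 genes were detected in every library, with mean levels between the percentiles 36.5 (Per3) and 95.95 (Nr1d1) of all genes tested. On the per-length TPM scale, mean levels over the 91 libraries were 88.1 for Nr1d1, 72.1 for Cry2, 62.4 for Per1, 29.7 for Nr1d2, 27.4 for Dbp, 13.2 for Clock, 9.30 for Per2, 6.99 for Arntl, 4.997 for Cry1 and 4.28 for Per3. Nr1d1 thus stood above Arntl, which it represses, in the median of every strain. The lowest count behind a value was 48, for Per3.

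**Figure D1:**
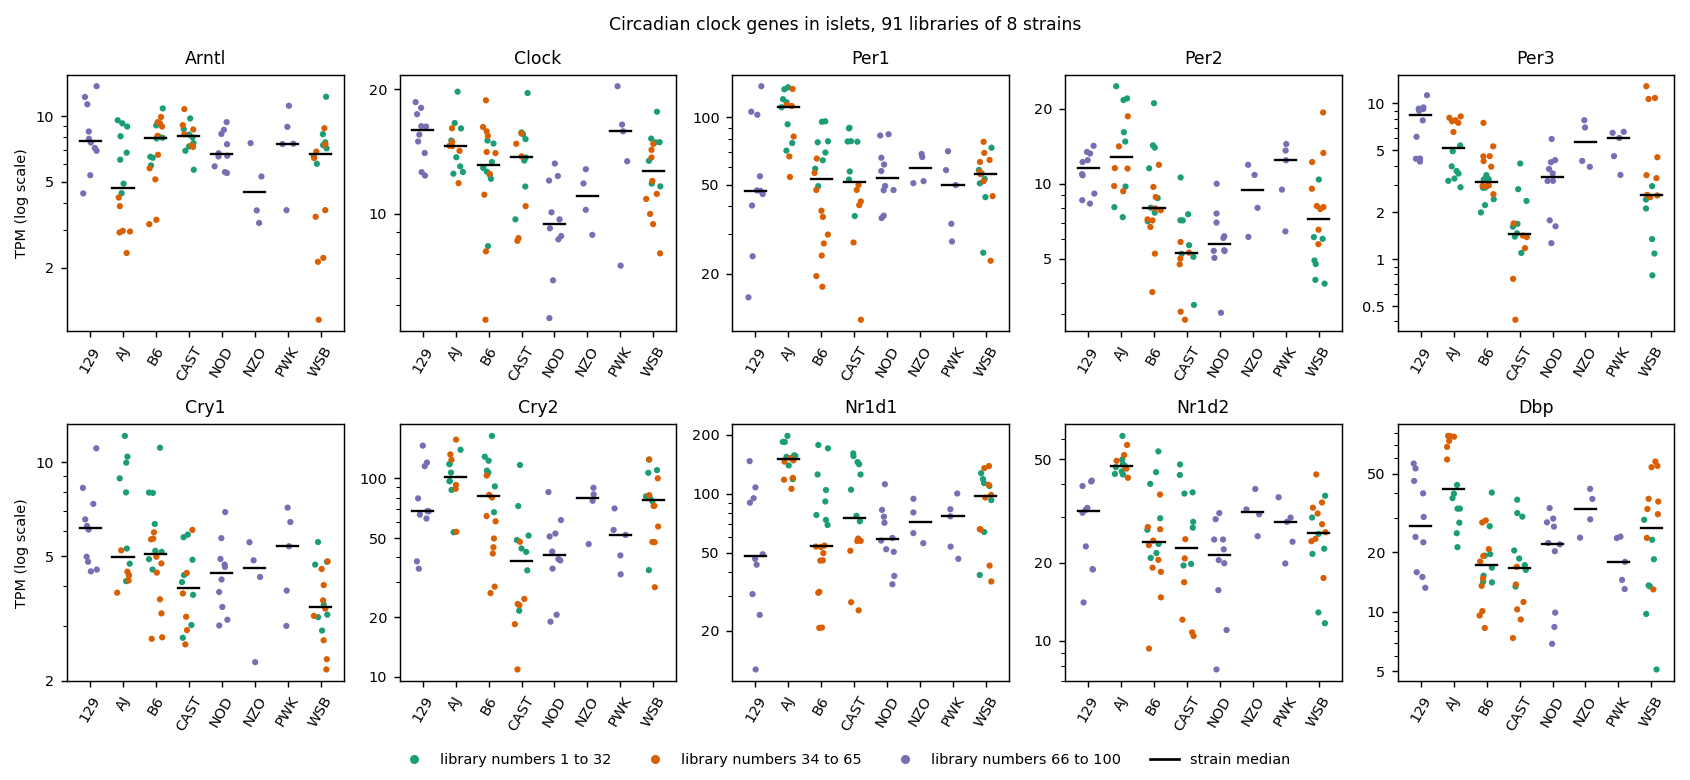
TPM (log axis) of the 10 clock genes in each of the 91 libraries, by strain, with points coloured by library number range and bars at the strain medians. AJ sits highest for Per1, Nr1d1, Nr1d2 and Dbp, and CAST lowest for Per3 (median 1.445 TPM).

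The activators differed in how much they varied. Arntl (chromosome 7, 113207465 to 113314126, plus strand) had median TPM of 8.125 in CAST, 7.94 in B6, 7.725 in 129, 7.48 in PWK, 6.725 in WSB, 6.67 in NOD, 4.655 in AJ and 4.48 in NZO. Libraries ran from 1.15 to 13.8 TPM, a range of 11.99-fold, and all pairs of strains overlapped. The 4 NZO libraries held 7.53, 3.68, 3.22 and 5.28 TPM, and the 5 PWK libraries 7.45, 8.95, 7.48, 3.69 and 11.2 TPM. Clock (chromosome 5, 76209868 to 76304792, minus strand) varied least, with libraries from 5.53 to 20.4 TPM and medians from 15.89 in 129, 15.82 in PWK, 14.58 in AJ, 13.71 in CAST, 13.12 in B6, 12.71 in WSB and 11.02 in NZO down to 9.445 in NOD. On the scale of normalized counts, which the tests below used, the order for Clock was CAST, WSB, 129, B6, AJ, PWK, NZO and NOD, so the place of CAST, WSB and PWK depended on the scale.

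The Per repressors had different orders of strains. Per1 (chromosome 11, 69095217 to 69109960, plus strand) had a median of 111.6 TPM in AJ and of 47.01 to 59.13 TPM in the other 7 strains. Per2 (chromosome 1, 91415982 to 91459324, minus strand) had medians of 12.87 TPM in AJ, 12.45 in PWK, 11.6 in 129, 9.445 in NZO, 8.005 in B6, 7.24 in WSB, 5.745 in NOD and 5.27 in CAST. Per3 (chromosome 4, 151003652 to 151044665, minus strand) had the widest range of the 10 genes, from 0.41 TPM in a CAST library to 12.9 TPM in a WSB library. Its medians were 8.385 TPM in 129, 6.01 in PWK, 5.645 in NZO, 5.16 in AJ, 3.375 in NOD, 3.12 in B6, 2.58 in WSB and 1.445 in CAST. The 10 libraries of 129 held 4.24 to 11.3 TPM of Per3 and the 14 of CAST held 0.41 to 4.12 TPM, so these strains did not overlap on the TPM scale. On the scale of normalized counts they did, with a lowest count of 419 in 129 and a highest of 441 in CAST.

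Of the cryptochromes, Cry1 (chromosome 10, 85131700 to 85185064, minus strand) was low, with libraries from 2.17 to 12.1 TPM and medians from 6.165 TPM in 129 to 3.45 TPM in WSB. Cry2 (chromosome 2, 92403646 to 92434043, minus strand) was higher, with medians of 101.9 TPM in AJ, 81.35 in B6, 80.08 in NZO, 78.1 in WSB, 68.32 in 129, 51.86 in PWK, 40.98 in NOD and 38.48 in CAST. Among the nuclear receptors, Nr1d1 (chromosome 11, 98767932 to 98775333, minus strand) had a median of 149.8 TPM in AJ and of 96.96 TPM in WSB, the next strain, and was lowest in 129 at 47.8 TPM. Nr1d2 (chromosome 14, 18204054 to 18239127, minus strand) had a median of 46.92 TPM in AJ and of 21.46 to 31.52 TPM in the others. The 14 AJ libraries held 42.4 to 61.5 TPM of Nr1d2, above all libraries of 129, NOD, NZO and PWK. Dbp (chromosome 7, 45705088 to 45710203, plus strand), a D-box activator and a widely used readout of the clock, had medians of 41.75 TPM in AJ, 33.34 in NZO, 27.09 in 129, 26.46 in WSB, 22.14 in NOD, 17.92 in PWK, 17.36 in B6 and 16.62 in CAST.

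Strain accounted for less of the variance of each clock gene than of the median gene. On the log2(normalized count + 1) scale, strain took 19.7% (Cry1) to 49.4% (Clock) of the variance between libraries, and the median over all genes tested was 50.9%. The SD between libraries of a strain was 0.79 for Nr1d1, 0.70 for Dbp, 0.65 for Per3, 0.62 for Cry2, 0.61 for Per1, 0.59 for Arntl, 0.48 for Per2, 0.43 for Cry1 and 0.43 for Nr1d2 on this log2 scale, all above the median of 0.25 over all genes, and 0.19 for Clock. Of the 7 steps between neighbouring strains in the order of means, 1 exceeded that SD for Clock (PWK above NZO), Per1 (AJ above CAST), Per3 (NOD above CAST) and Nr1d2 (AJ above NZO), and 0 did for the other 6 genes. These steps between ordered means were set against the spread of single libraries, and neighbouring strains were not tested against each other.

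The design first asks which genes differ between the strains. All 10 clock genes did in edgeR's quasi-likelihood F test with sex as a covariate (largest Benjamini-Hochberg adjusted p = 0.0039, for Arntl), where 97.4% of all genes tested passed, so the count is close to the background. The largest difference between the highest and the lowest strain was 1.88 on the log2 scale (Per3) and the smallest 0.59 (Clock). Among 129, NOD, NZO and PWK alone, the strains that share a number range, 3 of the 10 passed, as did 12411 of all 15204 genes. Among AJ, B6, CAST and WSB with number range as a term 9 of the 10 passed, as did 13169 of all genes. With the libraries of each sample summed 8 of the 10 passed, as did 12789 of all genes, and Cry1 was among those that did not (adjusted p = 0.36).

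Each strain was then compared with the mean of the other 7. AJ stood out by number of clock genes: 7 rose and 1 fell, where 57% of all genes passed in either direction, and the median log2 fold change was 0.64 over the 10 genes and -0.04 over all genes. In AJ, Dbp rose by 0.97 ± 0.18 (log2 fold change ± SE, adjusted p = 5.5e-06), Nr1d1 by 0.91 ± 0.21 (adjusted p = 0.00017), Per1 by 0.76 ± 0.16, Nr1d2 by 0.72 ± 0.12, Cry2 by 0.64 ± 0.17, Per2 by 0.63 ± 0.14 and Cry1 by 0.35 ± 0.13. Arntl fell by 0.48 ± 0.17 on the log2 scale (adjusted p = 0.011). Both Cry1 and Arntl differed by number range within AJ. Median Cry1 was 8.435 TPM in numbers 1 to 32 and 4.34 TPM in 34 to 65, where B6 was at 4.585, CAST at 3.5 and WSB at 3.4. Median Arntl was 2.95 TPM in 34 to 65 and 7.45 TPM in 1 to 32, where B6 was at 7.94, CAST at 7.775 and WSB at 7.37. With the libraries of each sample summed 6 of the 8 passed, without Arntl (adjusted p = 0.055) and Cry1 (adjusted p = 0.21), and in limma-voom 7 did, without Cry1 (adjusted p = 0.061). AJ also had the lowest acinar markers of the strains, and with their sum as a covariate 7 clock genes passed, without Arntl, while calls over all genes went from 8670 to 7082. Summed immediate early genes had their highest strain median in AJ, at 6526 TPM against 4699 TPM over all libraries, and 6 of these 8 genes rose in AJ. With that sum as a covariate 6 clock genes passed, without Arntl and Cry2, and 7116 of all genes. The part of either in the AJ values was not otherwise tested.

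In CAST, 2 clock genes rose and 4 fell, where 57.7% of all genes passed. The activators Arntl (0.52 ± 0.16) and Clock (0.24 ± 0.05) rose. Per3 had the largest strain difference among the 10 genes and fell by 1.35 ± 0.21 on the log2 scale (adjusted p = 2.7e-08). Cry2 fell by 0.60 ± 0.19, Per2 by 0.60 ± 0.15 and Dbp by 0.51 ± 0.20 on the same scale. With the libraries of each sample summed 4 of the 6 passed, without Arntl (adjusted p = 0.054) and Dbp (adjusted p = 0.068).

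In NOD, 4 clock genes fell and 0 rose, where 65.3% of all genes passed. Per2 fell by 0.55 ± 0.17, Cry2 by 0.54 ± 0.22, Nr1d2 by 0.54 ± 0.15 and Clock by 0.43 ± 0.07 on the log2 scale. Lymphocyte markers were highest in NOD, as were macrophage markers (4 of 4 detected, median 314.5 TPM against at most 33.5 in another strain) and mesenchymal markers (3 of 3 detected, median 67.5 TPM), and the endocrine sum was lowest (median 355050 TPM). With the lymphocyte sum as a covariate 1 of the 4 (Nr1d2) still passed, and calls over all genes went from 9928 to 5052. In 129, 2 passed, against 48.9% of all genes. Per3 rose by 0.80 ± 0.20 (adjusted p = 0.00055) and Nr1d1 fell by 0.65 ± 0.27 on the log2 scale (adjusted p = 0.039). Without the libraries whose Xist and Y-linked counts went against their label, 6 of which were of 129, the Nr1d1 value turned to 0.15 (adjusted p = 0.82).

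The other strains had smaller changes. In B6, where 53.2% of all genes passed, Cry2 (0.45 ± 0.16), Cry1 (0.28 ± 0.12) and Clock (0.12 ± 0.05) rose and Dbp fell by 0.43 ± 0.18 on the log2 scale. With the lymphocyte sum as a covariate, or with the libraries of each sample summed, 0 of these 4 passed. In a fit of AJ, B6, CAST and WSB alone with number range as a term, Clock in B6 was at -0.022. That fit left NOD and NZO, the strains lowest for Clock, out of the comparison. The term and the change of strains compared cannot be told apart there. In WSB, against 56.2% of all genes, Cry2 (0.39 ± 0.17) and Clock (0.13 ± 0.05) rose and Cry1 fell by 0.33 ± 0.13 on the log2 scale. In the fit with number range as a term, which compared WSB with AJ, B6 and CAST only, 1 of the 3 (Cry1) passed and Clock was at -0.014. With the libraries of each sample summed 0 passed. In NZO (34.2% of all genes) Clock fell by 0.29 ± 0.10 on that scale, and the call was lost without either of 2 of the 4 NZO libraries. Ductal markers (5 of 5 detected) summed to 198.5 to 871 TPM in NZO, with strain medians of 298 TPM there and at most 139.4 TPM elsewhere, and mesenchymal markers had a median of 49.7 TPM in NZO. Their part in the Clock value was not tested. In PWK (45.1% of all genes) 0 clock genes passed in edgeR, with 0 at an unadjusted p under 0.05, and DESeq2 and limma-voom also called 0. With the libraries of each sample summed 3 clock genes passed, as did 6543 of all 15204 genes. With the immediate early covariate 1 clock gene passed, as did 7078 of all genes.

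**Figure D2:**
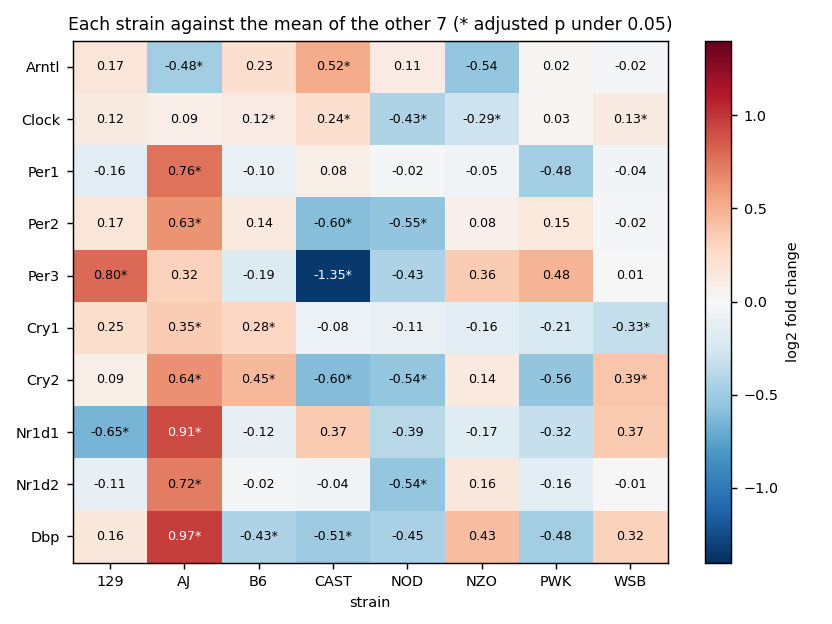
Log2 fold change of each clock gene in each strain against the mean of the other 7 strains, with an asterisk where the adjusted p from edgeR was under 0.05. The AJ column holds 7 rises and 1 fall, and the darkest cell is Per3 in CAST at -1.35.

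The wider clock list of 22 further genes was measured in full. In AJ 13 of the 22 rose and 3 fell, where 57% of all genes passed in either direction. Npas2, the paralogue of Clock, fell by 1.05 ± 0.25 on the log2 scale, while the D-box factor Tef rose by 0.63 ± 0.11, the D-box repressor Nfil3 by 1.19 ± 0.27, the E-box repressor Bhlhe41 by 0.76 ± 0.11 and Ciart, an inhibitor of the Arntl and Clock pair, by 0.84 ± 0.20. In CAST 3 of the 22 rose and 8 fell, where 57.7% of all genes passed. The D-box factors Tef and Hlf fell by 0.57 ± 0.12 and 0.58 ± 0.15 and Ciart by 0.71 ± 0.23 on the log2 scale. In NOD 1 rose and 10 fell (65.3% of all genes passed), with medians of -0.26 over the 22 genes and 0.03 over all genes. In 129 2 rose and 3 fell (48.9% of all genes), in B6 6 and 1 (53.2%), in NZO 2 and 1 (34.2%), in PWK 3 and 8 (45.1%), and in WSB 6 and 3 (56.2%). The share of the 22 genes that passed was below that of all genes in 129, B6, CAST, NOD, NZO and WSB.

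Sex was tested over all strains. For the difference of male minus female, 0 of the 10 clock genes passed in edgeR, where 4.01% of all genes did, and DESeq2 and limma-voom also called 0. At an unadjusted p under 0.05 there was 1, Per3, at -0.36 ± 0.13 on the log2 scale (adjusted p = 0.12). Without the libraries against their sex label Per3 passed, at -0.46 (adjusted p = 0.012). For the strain by sex interaction in the 6 strains with 5 or more libraries of each sex, 0 of the 10 passed in edgeR, DESeq2 and limma-voom, where 5.9% of all genes passed in edgeR. At an unadjusted p under 0.05 there was 1 in edgeR, Cry1 (adjusted p = 0.080).

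In AJ, B6, CAST and WSB the libraries numbered 34 to 65 were compared with those numbered 1 to 32. Of the 10 clock genes 1 rose and 5 fell, where 44.4% of all genes passed. Nr1d1 fell by 0.86 ± 0.15 on the log2 scale (adjusted p = 4.8e-06), Cry2 by 0.58 ± 0.13, Per1 by 0.49 ± 0.12, Arntl by 0.40 ± 0.14 and Cry1 by 0.36 ± 0.11, and Per3 rose by 0.68 ± 0.16. The median was -0.29 over the 10 genes and 0.05 over all genes. Of the 22 further clock genes 2 rose and 12 fell. Among these Nfil3 fell by 1.55 ± 0.18, the repressor Bhlhe40 by 0.92 ± 0.14, the kinase Wee1 by 0.82 ± 0.12 and the receptor Rora by 0.49 ± 0.05 on the log2 scale. Of the 8 immediate early genes 1 rose (Fos, by 0.74 ± 0.13). Another 3 fell, Nr4a1 by 1.07 ± 0.13, Atf3 by 0.90 ± 0.20 and Junb by 0.63 ± 0.12 on that scale. Their part in the range differences of the clock genes was not tested.

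The range difference was not the same in the 4 strains. A test of strain by number range, added after the values were seen, passed for 7 of the 10 clock genes, where 7.01% of all genes passed. The smallest adjusted p was 7.9e-05, for Dbp. Dbp in AJ held 21.3 to 43.9 TPM (median 33.3) in the 8 libraries numbered 1 to 32 and 58.99 to 77.6 TPM (median 75.1) in the 6 numbered 34 to 65, with no overlap, as for 6.66% of all genes in AJ. In WSB its medians were 13.6 and 36.2 TPM, in B6 18 and 16.4 TPM, and in CAST 19.5 and 10.8 TPM. The fitted log2 differences were 1.11 in AJ, 1.34 in WSB, -0.30 in B6 and -0.81 in CAST.

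Arntl moved the other way in AJ and WSB. It held 4.42 to 9.60 TPM in the AJ libraries numbered 1 to 32 and 2.34 to 4.22 TPM in those numbered 34 to 65, again with no overlap, and the fitted log2 differences were -1.24 in AJ, -0.73 in WSB, -0.13 in B6 and 0.38 in CAST (adjusted p = 0.0090). Per3 followed Dbp in AJ, WSB and CAST, with log2 differences of 0.94 in AJ, 1.52 in WSB and -0.54 in CAST, and of 0.58 in B6 (adjusted p = 0.0027). Nr1d1 had another pattern (adjusted p = 0.017). It did not overlap between the ranges in B6 (0.908% of all genes did not), where medians were 97.7 and 45.6 TPM, or, on the TPM scale, in CAST (0.329% of all genes), where they were 133 and 54.2 TPM. On normalized counts the ranges overlapped in CAST (3684 to 9861 and 1416 to 4894), while median TPM in AJ were 156 and 133 and in WSB 109 and 95.5. Nr1d2 (adjusted p = 0.0037), Per2 (0.0068) and Per1 (0.035) were the other 3. Without the 4 WSB libraries against their sex label, 5 of the 7 passed, without Per1 and Per2.

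**Figure D3:**
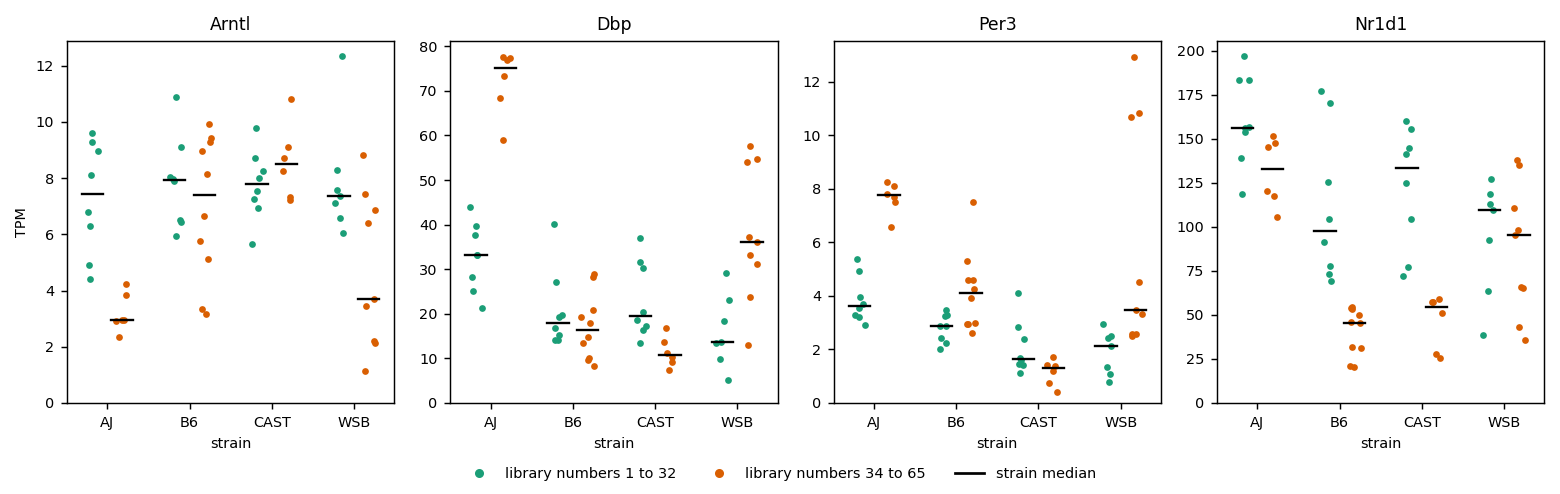
TPM of Arntl, Dbp, Per3 and Nr1d1 in libraries numbered 1 to 32 and 34 to 65 of the 4 strains with both, with bars at the medians. In AJ the ranges do not overlap for Arntl, Dbp and Per3, and in B6 and CAST they do not for Nr1d1 on this scale (in CAST they do on normalized counts).

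Relations between clock genes were then examined between libraries of the same strain. They were computed over 45 pairs of clock genes from log2(normalized count + 1) centred on the strain mean, with permutation of libraries within strains, and 30 of the 45 pairs passed, 22 positive and 8 negative. On the log2(TPM + 1) scale 30 passed as well, 28 positive and 2 negative. The smallest r that passed was 0.23 in size, which 32.9% of all pairs of the 15204 genes reached, 17.6% positive and 15.4% negative. This share over all genes is a description and carries no p. The smallest p that the permutations can give is 1e-05, and pairs at that p had an adjusted p of 2.6e-05 here. Per1, Per2, Cry2, Nr1d1 and Nr1d2 were positively related in each of their 10 pairs, with r from 0.44 to 0.85, while Arntl, Clock and Cry1 were each negatively related to Dbp and Per3. Of these 6 negative relations, those of Arntl also passed on the log2(TPM + 1) scale, where Cry1 was at r = -0.16 with Dbp and -0.14 with Per3 and the r of Clock was positive with both. Without WSB, the relations of Clock to Dbp (r = -0.19, permutation adjusted p = 0.16) and to Per3 (r = -0.07, permutation adjusted p = 0.61) did not pass.

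Arntl, the activator, and Dbp, the output gene, were inversely related in each of the 6 strains with 10 or more libraries. Over the 91 libraries r was -0.77 and rho -0.81 (permutation adjusted p = 2.6e-05 for each), and r was -0.77 without the 2 libraries farthest from the median of Arntl. Within strains, as a description, r was -0.94 in AJ, -0.88 in 129, -0.78 in NOD, -0.77 in WSB, -0.64 in B6 and -0.63 in CAST. Centred on strain and number range, r was -0.70 (permutation adjusted p = 2.6e-05). On the log2(TPM + 1) scale it was -0.56 (permutation adjusted p = 2.4e-05).

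The per-library values show the size of these differences. In 3 WSB libraries, numbered 46, 47 and 48 and named after their values were seen, Arntl held 1.15, 2.13 and 2.22 TPM, the lowest of the 91 libraries, with Dbp at 53.9, 54.8 and 57.6 TPM and Per3 at 12.9, 10.8 and 10.7 TPM. The WSB library numbered 12 held 7.59 TPM of Arntl, 5.12 TPM of Dbp and 0.79 TPM of Per3. In 129, likewise chosen after their values were seen, the libraries numbered 78, 79 and 80 held 12.3, 13.8 and 11.4 TPM of Arntl with 13.2, 15.03 and 15.9 TPM of Dbp, while those numbered 76, 77 and 85 held 5.35, 6.94 and 4.41 TPM of Arntl with 45.96, 53.2 and 56.3 TPM of Dbp. The WSB library numbered 12 and the 129 libraries numbered 78, 79 and 80 are among the 12 whose Xist and Y-linked counts went against their sex label. Without those 12 libraries r between Arntl and Dbp was -0.78.

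Arntl was also inversely related to Per3 (r = -0.82, rho = -0.81) and to Nr1d2 (r = -0.48, rho = -0.54), each at a permutation adjusted p of 2.6e-05, although Nr1d2 did not pass on the log2(TPM + 1) scale (r = -0.19, permutation adjusted p = 0.069). It was related positively to Clock (r = 0.48, rho = 0.42) and Cry1 (r = 0.39, rho = 0.44, permutation adjusted p = 0.00085). With Clock, r within strains ran from -0.19 in B6 and -0.06 in CAST to 0.85 in WSB, and was 0.31 without WSB. The relation of Arntl to its repressor Nr1d1 did not pass (r = -0.02, rho = -0.03, permutation adjusted p = 0.86), and within strains r ran from -0.71 in 129 to 0.54 in AJ. The strongest positive pairs were Per1 with Nr1d1 (r = 0.85, rho = 0.83), Per1 with Cry2 (r = 0.85, rho = 0.85), Dbp with Per3 (r = 0.79, rho = 0.78) and Dbp with Nr1d2 (r = 0.76, rho = 0.78). These 4 pairs had a positive r in each of the 6 strains with 10 or more libraries. Without the 2 farthest libraries r was 0.84 for both Per1 pairs, 0.75 for Dbp with Per3 and 0.72 for Dbp with Nr1d2. Clock passed with 3 of the other 9 genes. Its relations to Dbp (r = -0.35) and Per3 (r = -0.29) did not pass without WSB, and changed sign on the log2(TPM + 1) scale.

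**Figure D4:**
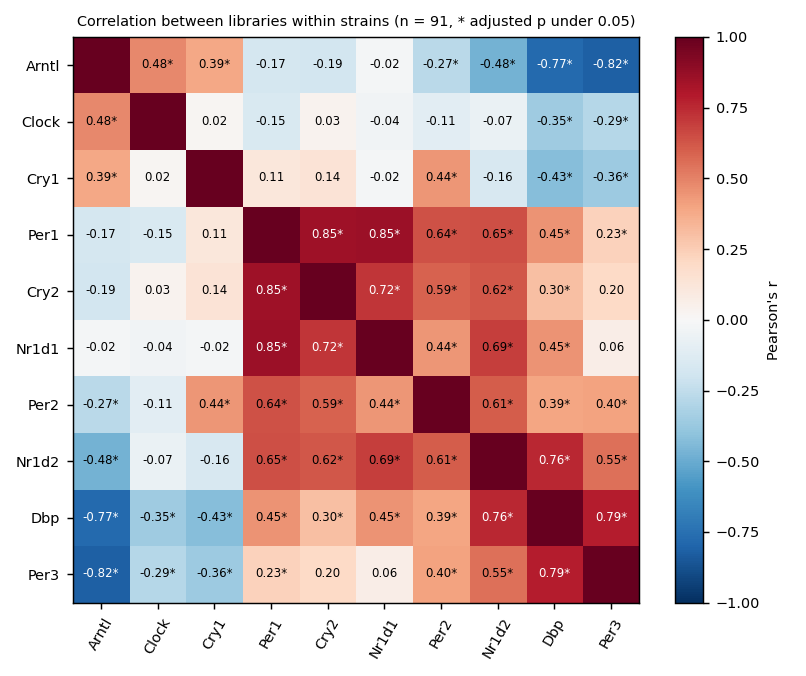
Pearson's r between clock genes over 91 libraries centred on strain means, with an asterisk where the permutation adjusted p was under 0.05. Dbp and Per3 are at -0.77 and -0.82 with Arntl, and Per1, Cry2 and Nr1d1 form a block at 0.72 to 0.85.

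Likeness to Arntl and to Dbp was ranked over all 15204 genes. By r over the strain-centred libraries, given as a description, the 5 highest for Arntl were Npas2 (0.91), Ccnh (0.82), Hip1r (0.79), Ppm1b (0.77) and Rhobtb1 (0.70). The 5 lowest were Tef (-0.85), Per3 (-0.82), Dbp (-0.77), Hlf (-0.77) and Naa60 (-0.72). For Dbp the 5 highest were Tef (0.87), Per3 (0.79), Nr1d2 (0.76), Hlf (0.72) and Ciart (0.61), each a gene of the clock lists. The 5 lowest for Dbp were Arntl (-0.77), Npas2 (-0.77), Ccnh (-0.67), Hip1r (-0.66) and Ppm1b (-0.61). Npas2 can replace Clock as the partner of Arntl, Tef and Hlf are the close relatives of Dbp, and Ccnh encodes cyclin H. The points share strains and number ranges, and these values carry no p.

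**Figure D5:**
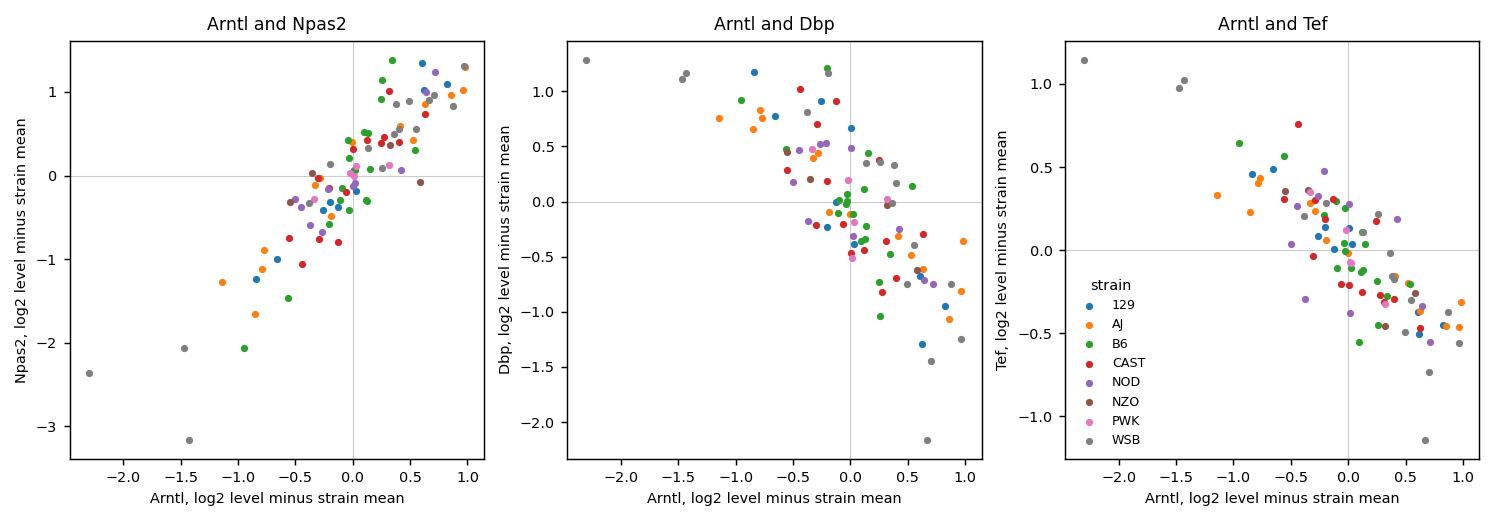
Log2 level minus the strain mean of Npas2, Dbp and Tef against that of Arntl in 91 libraries, coloured by strain. Npas2 lies along a rising band (r = 0.91) and Dbp (r = -0.77) and Tef (r = -0.85) along falling bands, with 3 WSB libraries at the far left.

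Immediate early genes varied with several of the clock genes between libraries. Among 100 relations of the 10 genes to 9 gene lists and to library depth, centred on strain and added after the values were seen, the summed immediate early genes (8 of 8 detected, 1378 to 8756 TPM) were related to Per1 at r = 0.69 (rho = 0.60, permutation adjusted p = 0.00025), to Nr1d1 at r = 0.52 (rho = 0.45), to Cry2 at r = 0.51 (rho = 0.49), to Dbp at r = 0.42 (rho = 0.43) and to Nr1d2 at r = 0.41 (rho = 0.35). Without the 2 farthest libraries r for Per1 was 0.67. The share of all genes as closely related to the list sums was not computed. Per1 is itself known as a gene that stimuli induce rapidly. The summed glucocorticoid-induced genes were related to Per1 (r = 0.50, rho = 0.50) and Cry2 (r = 0.50, rho = 0.60). Dbp did not pass with acinar (r = 0.0029), endocrine (r = -0.04) or lymphocyte (r = 0.18) markers or with total counts (r = 0.13, permutation adjusted p = 0.37). Arntl passed by Pearson's r with the glucocorticoid-induced list (r = -0.29, rho = -0.30), with immediate early genes (r = -0.22) and with endothelial (r = -0.27), lymphocyte (r = -0.23) and macrophage (r = -0.23) markers, and by rho only with the first of these 5 lists. The part of these lists in the clock gene values was not tested beyond the covariate fits above.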

How the data were processed

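Whole-islet mRNA libraries were sequenced by the authors and quantified with RSEM on mm10 with GENCODE gene models, and 1 gene table per library was used here. The authors deposited expected counts per gene, not normalized between libraries, and TPM, which are scaled within each library and corrected for transcript length. No column was left unmapped. Total expected counts ran from 16928552 to 35196145 per library. They set the counting precision, and p-values measure the spread between libraries, since nothing in the labels says that each is 1 mouse. Expected counts were rounded and fitted with edgeR 4.0.16 (upper-quartile normalization, quasi-likelihood, strain and sex terms) in R 4.3.3. From 21710 protein-coding genes of the autosomes and X, those in the lowest 10% of variance or at 0 in more than 15% of libraries were left out, which left 15204. Adjusted p-values are Benjamini-Hochberg over all genes tested, with a threshold of 0.05. Genes were matched to the reference annotation by identifier for 54079 of 54146. limma 3.58.1 and DESeq2 1.42.0 served as alternatives. Relations used log2(normalized count + 1), with a pseudocount of 1 and 100000 permutations, two-sided. The fits were tested on simulated data for 6 comparisons with 200 changed genes each, where the share of false calls exceeded the threshold for strain, AJ, sex and strain by number range.

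The named genes were the 10 clock genes, a list of 22 further clock genes, the immediate early and glucocorticoid-induced lists as sums and counts, and the 5 genes with the highest and the 5 with the lowest r to Arntl and to Dbp. The genes and lists were chosen with earlier results of these data known. The covariate fits, the test of strain by number range, the relations to gene lists and to library number, and the shares of all gene pairs and of genes without overlap between number ranges were added after the data were seen.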

Additional observations from a re-analysis of the deposited data

Results flagged for a closer look

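In AJ, B6, CAST and WSB the difference between libraries numbered 34 to 65 and 1 to 32 differed between strains for 7 of the 10 clock genes, by edgeR's quasi-likelihood F test of the strain by number range terms. Adjusted p-values were 7.9e-05 for Dbp, 0.0027 for Per3, 0.0037 for Nr1d2, 0.0068 for Per2, 0.0090 for Arntl, 0.017 for Nr1d1 and 0.035 for Per1. Without the 4 WSB libraries whose Xist and Y-linked counts went against their sex label 5 passed, and Per1 (adjusted p = 0.090) and Per2 (adjusted p = 0.13) did not. In the 40 groups of 4 to 10 libraries (129, NOD, NZO and PWK, for the 10 genes) 0 had a library far from the others by Dixon's criterion, where chance gives about 1 in 20.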

How the results depend on the processing

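The number of clock genes that differed between strains stayed between 8 and 10 except among 129, NOD, NZO and PWK alone, where it was 3. The calls against the mean of the other strains numbered 28 in all and 18 with the lymphocyte covariate. Leaving out each NZO or PWK library gave 25 to 28 in all, 10 between strains, 1 to 2 for 129, 8 for AJ, 2 to 4 for B6, 6 for CAST, 4 for NOD, 0 to 1 for NZO, 0 for PWK and 2 to 3 for WSB. With the libraries of each sample summed, 129 had 1 call, B6 0, NZO 2, PWK 3 and WSB 0. With the acinar covariate 129 had 1. With the lymphocyte covariate B6 had 0, NOD 1 and WSB 1. With the immediate early covariate B6 had 2 and PWK 1. B6 had 2 without a filter and 2 in limma-voom. NZO had 0 among the strains numbered 66 to 100, where it was compared with 129, NOD and PWK only. WSB had 1 with number range as a term, where it was compared with AJ, B6 and CAST only, and 1 without the libraries against their sex label. That last setting gave 1 call for sex. Reversed values were Nr1d1 in 129 (0.15 without the libraries against their sex label), and Clock with Per3 (0.16) and with Dbp (0.21) on the log2(TPM + 1) scale. Clock in B6 (-0.022) and WSB (-0.014) also turned in the fit of AJ, B6, CAST and WSB with number range as a term. That fit left NOD and NZO, the strains lowest for Clock, out of the comparison. The cause was not tested. Calls that held under every alternative run for them were 2 of the 10 between strains (Per2 and Per3), 11 of the 28 strain calls (Per1, Per2, Nr1d1, Nr1d2 and Dbp in AJ, Clock, Per2, Per3 and Cry2 in CAST, Per3 in 129, Nr1d2 in NOD), 6 of 6 for number range and 20 of 30 pairs.

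Over all genes, sex calls numbered 609 and 1489 without the libraries against their sex label and 0 in the summed samples, strain by sex calls 897, 2676 without those libraries and 426 in limma-voom, strain by number range calls 1066 and 693 without those libraries. Calls for 129 fell from 7433 to 3195 without those libraries. The summed samples gave 4542 for 129, 4653 for AJ, 3892 for B6, 5431 for CAST and 4615 for WSB, against 7433, 8670, 8086, 8777 and 8547, and the lymphocyte covariate gave 5052 for NOD against 9928. On the log2(TPM + 1) scale the median of all genes differed from the other strains by 0.18 in 129, -0.11 in B6, -0.18 in CAST and -0.12 in WSB, where upper-quartile scaling gave 0.03, -0.01, -0.02 and -0.02. No paired analysis was possible because the labels give no replicate numbers that link samples of different strains. Depth limits Per3 and Arntl most, with minima of 48 and 81 counts. The covariate fits and the test of strain by number range were chosen after the data were seen.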

Other observations

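Within strain and number range, the running library number itself was not related to any of the 10 clock genes at an adjusted p under 0.05 (permutation of libraries within strain and range, 10 relations, n = 91). The closest were Dbp (r = 0.28, rho = 0.27, permutation adjusted p = 0.087 for r) and Per2 (r = 0.26, rho = 0.25, permutation adjusted p = 0.087). Without the 2 libraries farthest in number r was 0.31 for Dbp and 0.27 for Per2.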
